A study of Homo sapiens with 6 samples.

Results

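MHC class I molecules show peptides from inside a cell to CD8 T cells and give inhibitory signals to natural killer cells. A heavy chain pairs with beta-2-microglobulin and takes up a peptide that the proteasome has cut, that the TAP transporter has moved into the endoplasmic reticulum and that tapasin helps to load. In most cell types, hepatocytes included, interferon raises these genes together and exchanges the catalytic subunits of the proteasome for inducible ones, which gives the immunoproteasome. The genes described here are 9 members of that route among the 12396 named genes of the deposited count table: the heavy chains HLA-B, HLA-C and HLA-E, the light chain B2M, the transporter subunits TAP1 and TAP2, tapasin (TAPBP) and the inducible proteasome subunits PSMB8 and PSMB9. They were chosen by gene symbol, with earlier results of these data known, and all 9 were found.

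Bulk RNA-seq compared JHH-4 cells in which a pri-miRNA plasmid raised hsa-miR-372-3p (miR372_3p) with JHH-4 controls (Control), labelled WT. JHH-4 is a human hepatocellular carcinoma line with an epithelial-like form, grown with fetal bovine serum, and no interferon treatment is named. Each group held 3 libraries, which the series calls technical replicates of 1 cell line. The p-values below therefore measure only the spread between these libraries. The labels do not say whether the controls carried an empty plasmid.

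Total counts over named genes were 51072581 to 60070397 in miR372_3p libraries and 46851245 to 47890069 in Control libraries. The first principal component held 72.5% of the variance and separated the groups, and Control replicate 3 stood apart from the other Control libraries on the second (10.2%). Of 14 liver markers, 7 had a row among the named genes and all 7 passed the test. KRT8, KRT18, FGA and FGB were higher and 3 were lower, SERPINA1 and FOXA2 among them. No row was found for ALB, APOA1, APOB, TTR, TF, AFP and HNF4A. Of 14 leukocyte markers only CD14 and CSF1R had a row among the named genes. Their summed level was 2.18 to 2.61 counts per 1000000 (CPM) in miR372_3p libraries and 7.48 to 7.77 CPM in Control libraries. The labels name 1 cell line, and any link of these markers to the results below was not tested. Both analysed stromal markers, COL1A1 and PDGFRB, rose, and their summed level was 81.2 to 88.2 CPM in miR372_3p libraries and 12.9 to 15.4 CPM in Control libraries. The microRNA itself was not analysed here, so its overexpression rests on the labels.

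The sequence of the overexpressed microRNA is shown because a microRNA finds its targets through its seed. In the mature sequence (RefSeq, GRCh38.p14, chr19:53787931-53787953, plus strand) the capitals mark the seed, bases 2 to 8.
hsa-miR-372-3p: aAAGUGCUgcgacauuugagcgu

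All 9 genes were lower in miR372_3p cells. Each passed the test (edgeR quasi-likelihood F-test, Benjamini-Hochberg adjusted over all 12396 genes, threshold 0.05) and 0 rose, while 27.7% of all genes tested were called lower and 26.8% higher, 54.5% in either direction. In CPM, scaled to the effective library size, the 3 miR372_3p libraries lay below the 3 Control libraries for all 9 genes, as they did for 31.4% of all genes. Fold changes were moderate, from 1.32-fold for B2M to 1.98-fold for PSMB9, and 5 of the 9 genes were lower by at least 1.5-fold, against 8.46% of all genes. The median log2 fold change of the 9 was −0.591, against 0.00125 over all genes. Since the 9 genes were chosen with earlier results known, these contrasts with all genes are descriptions. In bulk RNA, fewer cells with a transcript and less of it per cell cannot be told apart.

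**Figure D1:**
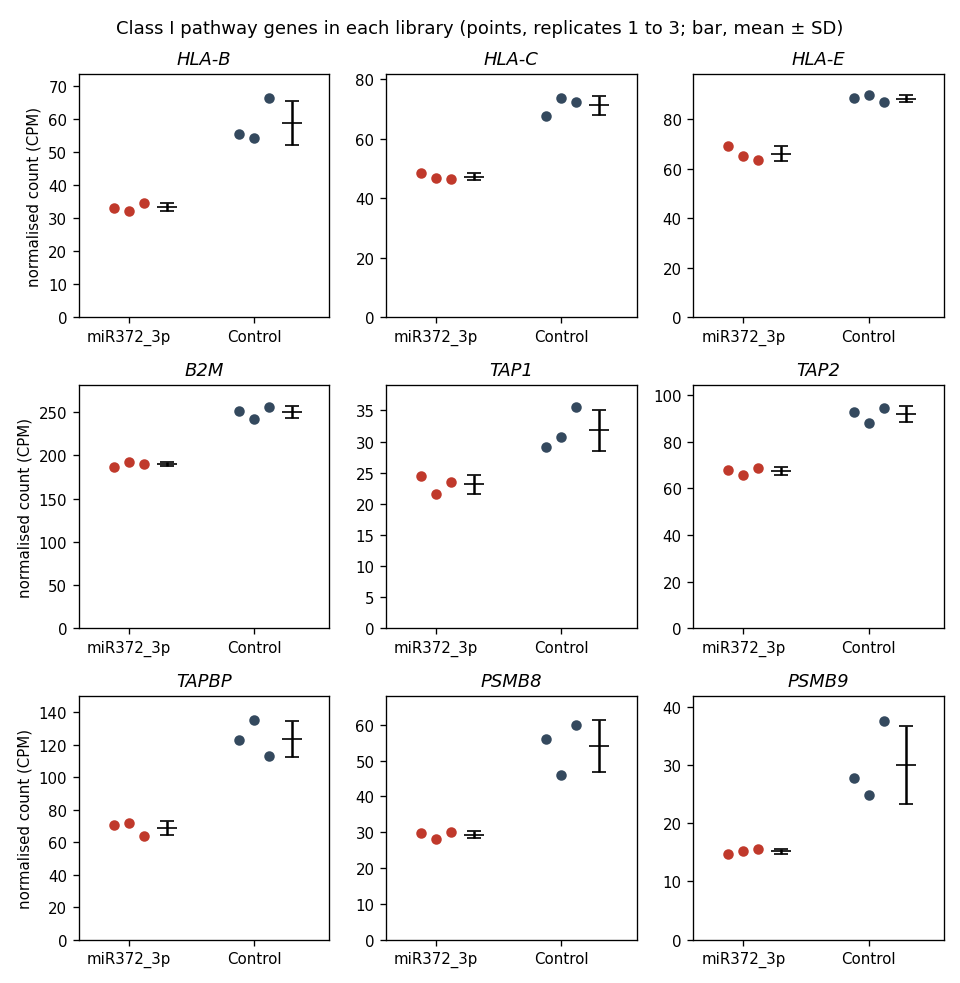
Normalised counts (CPM, linear axis from 0) of the 9 genes in each library, miR372_3p on the left and Control on the right of each panel. Points are replicates 1 to 3 and the bar is the mean ± SD (n = 3). In each panel the 3 miR372_3p libraries lie below the 3 Control libraries, and the Control points of PSMB9 spread from 24.8 to 37.6 CPM.

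The heavy chains form the peptide groove. HLA-B and HLA-C are classical chains that present peptides to T cells, and HLA-E is a less variable chain that mainly shows peptides from other class I leader sequences to receptors of natural killer cells. HLA-B (ENSG00000234745, chr6:31269491-31357188, minus strand) had 33.2, 32.2 and 34.6 CPM in miR372_3p replicates 1 to 3, against 55.6, 54.3 and 66.6 CPM in Control replicates 1 to 3. The highest miR372_3p library was far below the lowest Control library, and Control replicate 3 was the highest of the 6. The log2 fold change of HLA-B was −0.82 ± 0.076 (SE; 95% confidence interval −0.99 to −0.65, edgeR adjusted p = 1.53e-05). HLA-C (ENSG00000204525, chr6:31268749-31272130, minus strand) had 48.6, 46.7 and 46.6 CPM in miR372_3p libraries, against 67.7, 73.6 and 72.5 CPM in Control libraries. Its libraries were close within each group and far apart between groups, with a log2 fold change of −0.59 ± 0.049 (SE; edgeR adjusted p = 7.08e-06).

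HLA-E (ENSG00000204592, chr6:30489467-30494205, plus strand) had 69.4, 65.2 and 63.7 CPM in miR372_3p libraries, against 88.6, 89.7 and 86.9 CPM in Control libraries. The Control libraries of HLA-E differed by a coefficient of variation of 1.62%, the smallest of the 9 genes. Its log2 fold change was −0.42 ± 0.047 (SE; edgeR adjusted p = 5.38e-05). Its 95% confidence interval, −0.52 to −0.31, lay apart from that of HLA-B and overlapped that of HLA-C (−0.70 to −0.48). No test between the genes was made.

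HLA-F, a chain found mostly inside cells, fell with a log2 fold change of −0.81 ± 0.095 (SE; edgeR adjusted p = 7.15e-05), at 5.80 to 6.17 CPM in miR372_3p libraries and 9.99 to 11.1 CPM in Control libraries. Across the list of class I and class I-like heavy chains, 9 of 11 genes were measured. Of these, 6 were lower and 1 higher, against 27.7% and 26.8% of all genes. Their median of −0.59 rests partly on HLA-B, HLA-C and HLA-E. Among the others, HFE, which binds the transferrin receptor and regulates iron uptake, fell 5.00-fold (−2.32 ± 0.131, SE), and AZGP1, a secreted class I-like glycoprotein, fell 2.22-fold (−1.15 ± 0.224) from a low level of 1.01 to 1.23 CPM in miR372_3p and 1.96 to 3.07 CPM in Control libraries. FCGRT, the heavy chain of the neonatal Fc receptor, which also pairs with beta-2-microglobulin, rose 2.00-fold (1.00 ± 0.081, SE). The antigen-presenting chain MR1 did not pass (−0.21 ± 0.164). Reads from near-identical HLA genes can be assigned to the wrong member, and the labels do not say how the authors counted them. Of 3051 exonic bases of HLA-B, 35 are shared with HLA-C on the same strand. AL671883.2, a pseudogene on the opposite strand that was not analysed here, shares 542 of the exonic bases of HLA-B.

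B2M (ENSG00000166710, chr15:44711487-44718877, plus strand) codes for the light chain that stabilises class I heavy chains at the cell surface. B2M had 187, 192 and 190 CPM in miR372_3p libraries, against 251, 242 and 256 CPM in Control libraries. Both groups were tight, with coefficients of variation of 1.46% in miR372_3p and 2.87% in Control cells, and they did not overlap. Its log2 fold change of −0.40 ± 0.036 (SE; 95% confidence interval −0.48 to −0.31, edgeR adjusted p = 1.41e-05) was the smallest of the 9 in size.

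TAP1 and TAP2 form the transporter that moves cytosolic peptides into the endoplasmic reticulum. TAP1 (ENSG00000168394, chr6:32845209-32853978, minus strand) had 24.5, 21.5 and 23.4 CPM in miR372_3p libraries, against 29.2, 30.7 and 35.5 CPM in Control libraries. The groups did not overlap, and Control replicate 3 was the highest of the 6 libraries. The log2 fold change of TAP1 was −0.46 ± 0.083 (SE; 95% confidence interval −0.64 to −0.27, edgeR adjusted p = 0.00112), the highest p of the 9. TAP2 (ENSG00000204267, chr6:32821833-32838780, minus strand) had 67.9, 65.6 and 68.6 CPM in miR372_3p libraries, against 92.5, 88.1 and 94.5 CPM in Control libraries. With a log2 fold change of −0.45 ± 0.045 (SE; edgeR adjusted p = 2.85e-05), TAP2 had nearly the same change as its partner and a smaller error. Of 6390 exonic bases of TAP2, 2064 are shared with AL669918.1, a coding gene annotated on the same strand that was not analysed here.

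TAPBP (ENSG00000231925, chr6:33299694-33314387, minus strand) codes for tapasin, which holds empty class I molecules at the transporter. TAPBP had 70.7, 72.1 and 63.5 CPM in miR372_3p libraries, against 123, 135 and 113 CPM in Control libraries. The groups were far apart, with 72.1 CPM as the highest miR372_3p and 113 CPM as the lowest Control value. Its log2 fold change of −0.85 ± 0.071 (SE; edgeR adjusted p = 7.50e-06) was larger in size than those of TAP1 and TAP2, and the 95% confidence interval of TAPBP, −1.01 to −0.69, did not meet theirs. Unlike HLA-B, TAP1, PSMB8 and PSMB9, TAPBP was lowest in replicate 3 among the Control libraries.

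The other genes of loading and trimming in the endoplasmic reticulum mostly followed. Of 14 genes on their list, all measured, 12 were lower and 1 higher, against 27.7% and 26.8% of all genes. Without B2M, TAP1, TAP2 and TAPBP the counts were 8 lower and 1 higher of 10, with a median log2 fold change of −0.25. TAPBPL, a tapasin-like peptide editor, fell 1.90-fold (−0.93 ± 0.116, SE; edgeR adjusted p = 0.000108). ERAP1, which trims peptides to class I length, fell 1.66-fold (−0.73 ± 0.051; edgeR adjusted p = 2.36e-06), and ERAP2, its relative, fell 1.29-fold (−0.36 ± 0.0385). The chaperones calreticulin (CALR, −0.30 ± 0.038) and calnexin (CANX, −0.32 ± 0.032) also fell, while PDIA3, the disulfide isomerase of the loading complex, did not pass (0.03 ± 0.033).

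**Figure D2:**
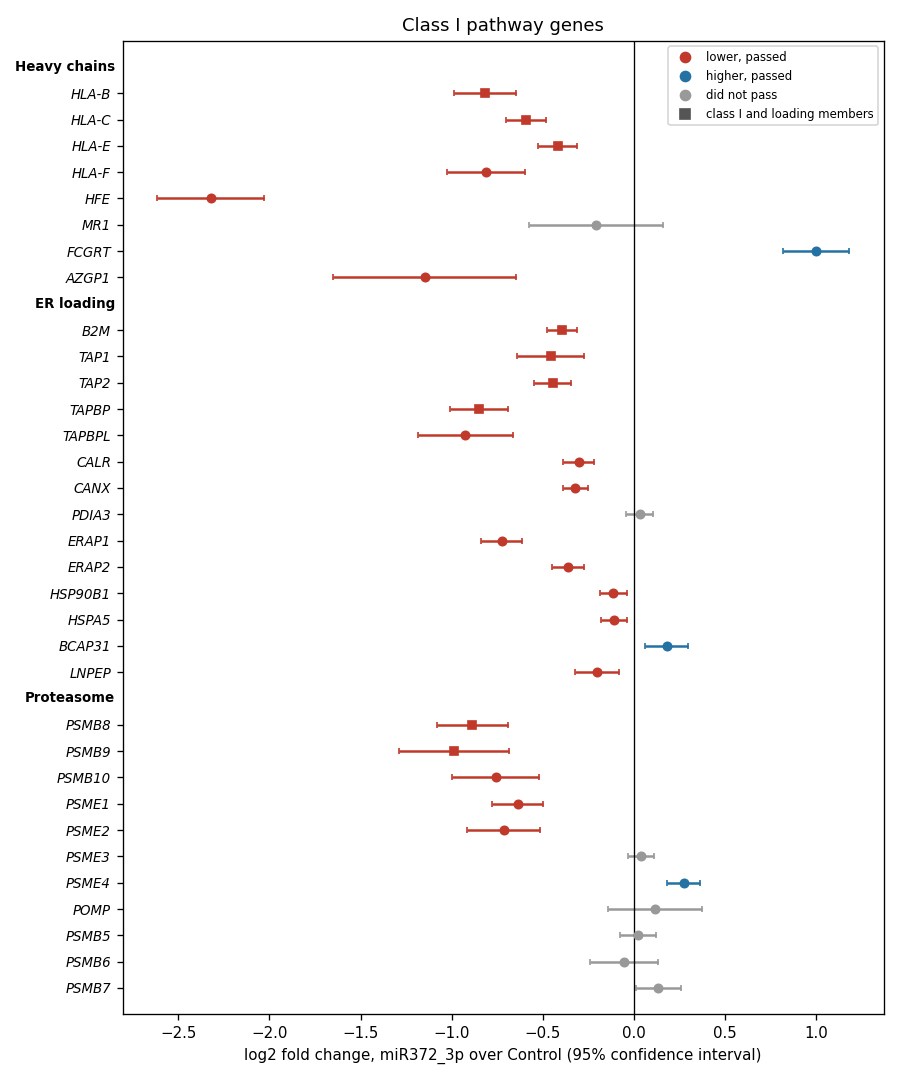
Log2 fold changes (miR372_3p over Control, n = 3 libraries each) with 95% confidence intervals for heavy chains, loading genes and proteasome genes. Squares are the 9 genes described here, red marks genes called lower, blue genes called higher and grey genes that did not pass. All squares lie left of 0, while PSMB5, PSMB6 and PSMB7 lie near 0.

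PSMB8 and PSMB9 are catalytic subunits of the immunoproteasome that take the places of PSMB5 and PSMB6, and PSMB10 takes that of PSMB7. PSMB8 (ENSG00000204264, chr6:32840717-32844703, minus strand) had 29.6, 28.1 and 29.9 CPM in miR372_3p libraries, against 56.1, 46.0 and 60.1 CPM in Control libraries. The miR372_3p libraries of PSMB8 lay close together and the Control libraries were spread, with replicate 2 the lowest. Its log2 fold change was −0.89 ± 0.087 (SE; edgeR adjusted p = 2.20e-05). PSMB9 (ENSG00000240065, chr6:32844136-32859585, plus strand) had 14.7, 15.2 and 15.6 CPM in miR372_3p libraries, against 27.7, 24.8 and 37.6 CPM in Control libraries. PSMB9 had the largest change of the 9 and the largest spread between Control libraries, with a coefficient of variation of 3.16% in miR372_3p and 22.3% in Control cells. The log2 fold change was −0.99 ± 0.134 (SE; 95% confidence interval −1.29 to −0.69, edgeR adjusted p = 0.000182), and without Control replicate 3 it was −0.79.

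The constitutive subunits that they replace did not pass the test: PSMB5 had a log2 fold change of 0.02 ± 0.044 (SE), PSMB6 of −0.05 ± 0.083 and PSMB7 of 0.13 ± 0.055. The sign of PSMB5 turned without miR372_3p replicate 2 and that of PSMB6 without Control replicate 3, and PSMB7 was called higher without Control replicate 3 (edgeR adjusted p = 0.00553) and with DESeq2 (adjusted p = 0.0415). PSMB10 fell 1.69-fold (−0.76 ± 0.106; edgeR adjusted p = 0.000226). In deposited FPKM (fragments per kilobase of gene, scaled to library size), PSMB8 stood to PSMB5 at 0.262, 0.238 and 0.269 in miR372_3p libraries and at 0.518, 0.418 and 0.525 in Control libraries. PSMB9 stood to PSMB6 at 0.178, 0.201 and 0.214 in miR372_3p libraries and at 0.368, 0.340 and 0.411 in Control libraries. The ratio of PSMB10 to PSMB7 was 0.117, 0.114 and 0.102 in miR372_3p libraries and 0.211, 0.187 and 0.218 in Control libraries. All 3 ratios were lower in every miR372_3p library than in any Control library, by −0.92, −0.92 and −0.88 on the log2 scale, and each gave p = 0.1 in an exact two-sided permutation test, the smallest possible, which an adjustment over the 3 ratios does not change.

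**Figure D3:**
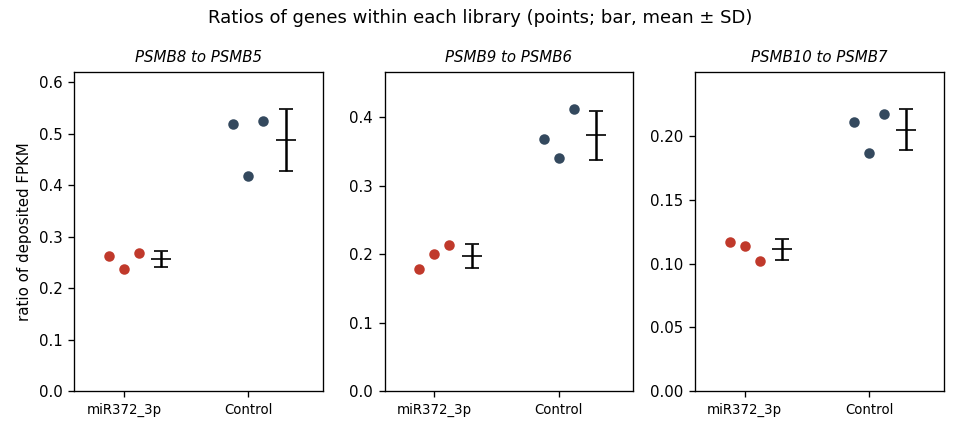
Ratios of deposited FPKM within each library (linear axes from 0), miR372_3p left of Control in each panel, for the inducible over the constitutive proteasome subunit. Points are libraries and the bar is the mean ± SD (n = 3). No ratio overlaps between the groups: PSMB8 to PSMB5, for example, is at most 0.269 in miR372_3p and at least 0.418 in Control libraries.

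Of the 11 genes on the list of the immunoproteasome, its activators and the constitutive subunits, 5 were lower and 1 higher. The shares over all genes were 27.7% lower and 26.8% higher. PSME1 and PSME2, which together form the interferon-inducible activator PA28, fell 1.56-fold (−0.64 ± 0.063, SE; edgeR adjusted p = 2.31e-05) and 1.64-fold (−0.71 ± 0.090; edgeR adjusted p = 0.000112). PSME3, the nuclear PA28 subunit, did not pass (0.04 ± 0.032), and PSME4, another activator of the proteasome, rose 1.21-fold (0.27 ± 0.041). Among 10 cytosolic peptidases that act on class I peptides, 2 were lower and 3 higher, against the same shares of all genes. Their median was 0.04. THOP1 had a log2 fold change of −0.32 ± 0.049 and NPEPPS of −0.20 ± 0.040, while BLMH rose by 0.42 ± 0.055, PREP by 0.24 ± 0.046 and NRDC by 0.10 ± 0.036. The call for NRDC was lost in 5 of the 6 fits that left out 1 library, those without any single miR372_3p library and without Control replicate 1 or 2, with edgeR adjusted p from 0.0814 to 0.165.

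PSMB8, PSMB9, TAP1 and TAP2 lie side by side in the class II block of chromosome 6. PSMB9 is read from the plus strand and the other members of this cluster from the minus strand. PSMB8 and PSMB9 share 139 exonic bases on opposite strands, and PSMB8-AS1, not analysed here, shares 618 of the 2997 exonic bases of PSMB8 and 456 of the 4805 of TAP1. The library kit does not mark strand, so reads from these stretches cannot be told apart. Other genes of the class II and class III blocks and of the neighbouring class I block did not all move the same way. Of 26 measured, 17 were lower, 4 higher and 5 did not pass, with a median of −0.29. Over all genes, 27.7% were lower and 26.8% higher. The class II genes among these 26 fell more than any of the 9 genes, except HLA-DOA at −0.92 ± 0.086 (SE). HLA-DRA was at −3.66 ± 0.099, HLA-DPA1 at −2.76 ± 0.069, HLA-DPB1 at −2.31 ± 0.134 and HLA-DMB at −1.93 ± 0.120. MICA, a stress ligand of NKG2D that does not bind beta-2-microglobulin, was at −1.96 ± 0.064. TNXB, an extracellular matrix gene, was at 2.12 ± 0.292 and at 1.41 ± 0.138 CPM in miR372_3p and 0.322 ± 0.122 CPM in Control cells (SD, n = 3), and RXRB and DAXX also rose.

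Promoter sequences are shown because the 9 genes moved together and are known to share elements bound by interferon regulatory factors and NF-kB. RefSeq windows of 300 bases, from 250 before to 50 after a start site (GRCh38.p14), were matched by symbol for 8 of the 9 genes. Capitals mark 2 motifs searched on both strands: the core of the interferon-stimulated response element, GAAA, any 2 bases and GAAA again, whose matches may overlap each other, and the kB site of NF-kB, the run of capitals nearer the right end in TAP1 and B2M. Each stretch runs 20 bases beyond its outermost matches.
TAP1, chr6:32853747-32853858, minus strand: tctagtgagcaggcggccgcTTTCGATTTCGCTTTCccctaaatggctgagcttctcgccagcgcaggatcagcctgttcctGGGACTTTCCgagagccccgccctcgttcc
B2M, chr15:44711353-44711421, plus strand: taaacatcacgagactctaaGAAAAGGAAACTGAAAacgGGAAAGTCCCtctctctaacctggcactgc
TAPBP, chr6:33314063-33314118, minus strand: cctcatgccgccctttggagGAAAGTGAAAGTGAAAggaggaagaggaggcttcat
TAP2, chr6:32838768-32838817, minus strand: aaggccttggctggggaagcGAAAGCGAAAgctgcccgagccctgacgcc
PSMB8, chr6:32844022-32844071, minus strand: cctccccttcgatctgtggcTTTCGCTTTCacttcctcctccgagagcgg
PSMB10, chr16:67936842-67936891, minus strand: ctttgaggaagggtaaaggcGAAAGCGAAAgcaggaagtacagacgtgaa

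The interferon response core was found in windows of 5 of the 8 genes, against 4.38% of 27305 genes with a window. The kB site was found in 2 of 8, TAP1 and B2M, against 0.227%. A gene was counted when any of its windows matched. TAP1 and PSMB8 had 2 windows each, for 2 start sites, and in both genes only 1 of the 2 held a match of either motif. These genes were known to be interferon-inducible when they were grouped, so the count is a description of them. The window of PSMB9 held neither motif. Its RefSeq start site lies 487 bases from the nearer of the 2 TAP1 start sites, on the opposite strand. TAP1 and PSMB9 are known to share a promoter that works in both directions. PSMB10, outside the 9 genes, held the core as well. Matches of the gamma-activated site, TTCNNNGAA, were found in 2 of 8 genes and in 9.38% of all genes. Genes with an exact match of the core (TAP1, TAP2, TAPBP, B2M and PSMB8) ranged from −0.89 to −0.40 in log2 fold change. HLA-B, HLA-C and PSMB9, without an exact match in their own windows, ranged from −0.99 to −0.59. Near matches were not counted, so a gene without an exact match may still hold a looser form of the element. A link between the core and the size of the change was not tested.

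The windows of HLA-B and HLA-C are shown whole because the 2 genes are near copies of each other also before the start site, with 88.5% identity in 304 aligned columns. Capitals mark CCAAT on either strand, the letters of the Y box that NF-Y binds within the class I enhanceosome.
HLA-B, chr6:31357130-31357429, minus strand: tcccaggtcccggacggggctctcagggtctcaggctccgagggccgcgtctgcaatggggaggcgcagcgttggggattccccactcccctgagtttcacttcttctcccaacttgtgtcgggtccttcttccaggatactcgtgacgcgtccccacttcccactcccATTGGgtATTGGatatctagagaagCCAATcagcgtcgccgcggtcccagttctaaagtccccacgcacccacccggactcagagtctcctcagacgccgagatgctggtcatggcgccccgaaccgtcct
HLA-C, chr6:31272043-31272342, minus strand: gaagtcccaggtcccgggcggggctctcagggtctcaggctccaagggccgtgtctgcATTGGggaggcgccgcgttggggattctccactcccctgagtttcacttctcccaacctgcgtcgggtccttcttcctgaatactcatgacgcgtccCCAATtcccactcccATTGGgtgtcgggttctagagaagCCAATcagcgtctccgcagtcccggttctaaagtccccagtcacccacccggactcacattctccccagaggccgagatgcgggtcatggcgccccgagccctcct
CCAAT was found 3 times in the HLA-B window and 4 times in that of HLA-C. It was found in 5 of the 8 genes with a window and is common, in 39.7% of all genes with one. No exact match of the interferon response core or of the kB site was found in either window.

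Some transcription factors that act on such elements were also lower. Of 21 genes on the list of regulators of class I transcription, 11 were lower, 1 higher and 9 did not pass. Their median log2 fold change was −0.33, and 27.7% of all genes were lower and 26.8% higher. NLRC5, the coactivator that drives class I promoters, had 5.57, 5.22 and 5.25 CPM in miR372_3p libraries, against 13.8, 12.7 and 14.5 CPM in Control libraries. The groups of NLRC5 were far apart, and it fell 2.56-fold (−1.35 ± 0.095, SE; edgeR adjusted p = 2.25e-06). CIITA, its relative that drives class II genes and can also act on class I promoters, fell 3.68-fold (−1.88 ± 0.098; edgeR adjusted p = 3.32e-07).

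IRF1, which binds interferon response elements, had 35.2, 35.0 and 35.5 CPM in miR372_3p libraries, against 63.0, 66.8 and 64.3 CPM in Control libraries. Its 6 values formed a pair of tight clusters, and it fell 1.84-fold (−0.88 ± 0.044, SE; edgeR adjusted p = 2.80e-07). IRF2, which binds the same elements, fell 2.50-fold (−1.32 ± 0.080; edgeR adjusted p = 8.07e-07). The NF-kB subunit RELA fell 2.04-fold (−1.03 ± 0.061; edgeR adjusted p = 7.51e-07) and NFKB1 fell 1.66-fold (−0.73 ± 0.092), while NFKB2 rose 1.21-fold (0.28 ± 0.050). Parts of the complex on class I promoters also fell, RFX5 by 0.57 ± 0.044 and NFYA by 0.64 ± 0.050 on the log2 scale, whereas RFXAP (−0.07 ± 0.144), RFXANK (−0.13 ± 0.054), NFYB (0.17 ± 0.083) and NFYC (−0.14 ± 0.079) did not pass. EZH2, a histone methyltransferase that can silence class I genes, fell as well (−0.33 ± 0.045).

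**Figure D4:**
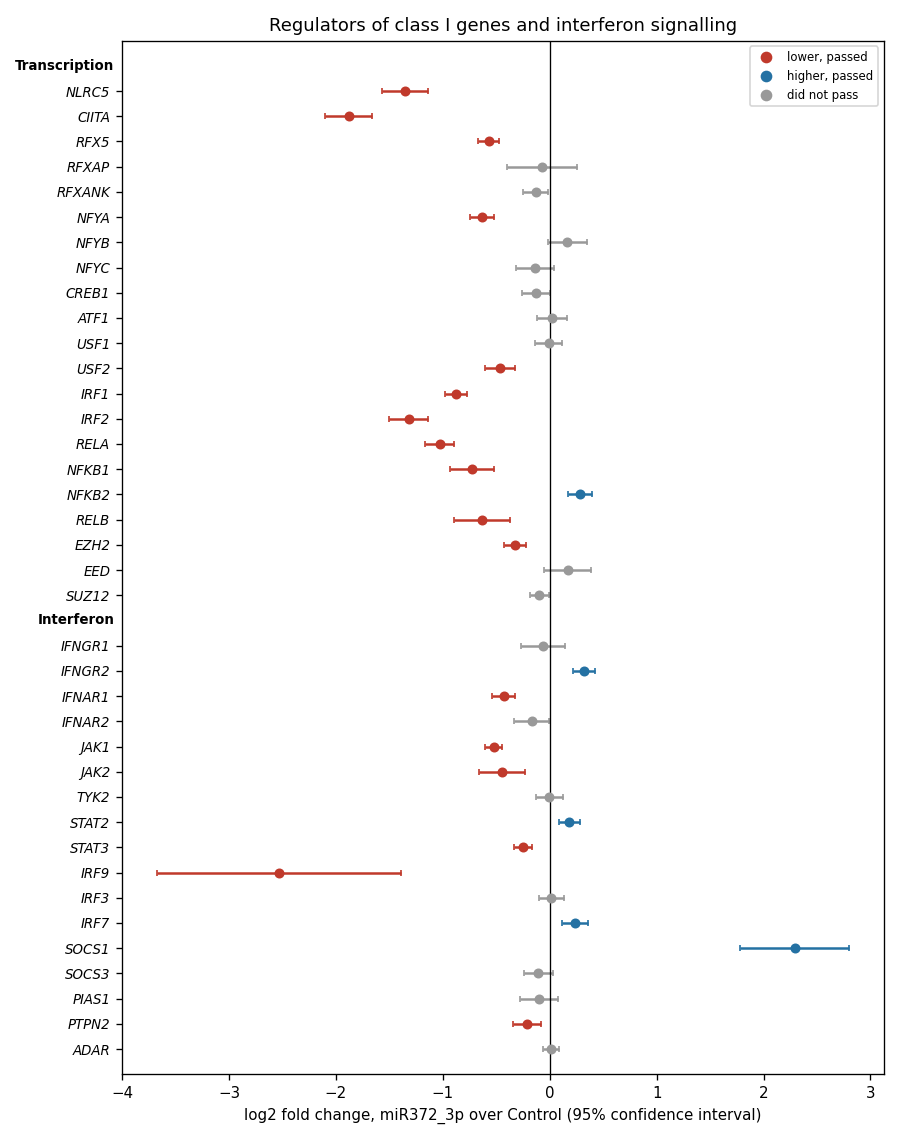
Log2 fold changes (miR372_3p over Control, n = 3 libraries each) with 95% confidence intervals for genes on the lists of class I transcription regulators and of interferon signalling. Red marks genes called lower, blue genes called higher and grey genes that did not pass. NLRC5, CIITA, IRF1, IRF2 and RELA lie left of −0.8, and SOCS1 lies at 2.29.

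Interferon signalling genes were mixed. Of 18 measured, 7 were lower, 4 higher and 7 did not pass, with a median of −0.10. Among all genes, 27.7% were lower and 26.8% higher. The kinases JAK1 (−0.53 ± 0.036, SE) and JAK2 (−0.45 ± 0.096) and the receptor chain IFNAR1 (−0.43 ± 0.049) fell, while the receptor chain IFNGR2 rose (0.32 ± 0.046). SOCS1, an inhibitor of JAK kinases, rose 4.89-fold (2.29 ± 0.228; edgeR adjusted p = 2.38e-05), at 4.74, 4.79 and 5.32 CPM in miR372_3p libraries against 1.13, 1.24 and 0.659 CPM in Control libraries. IRF9, the DNA-binding part of the type I interferon factor, had 1.12, 0.692 and 0.607 CPM in miR372_3p libraries, against 8.99, 2.32 and 2.80 CPM in Control libraries. The value for IRF9 leans on Control replicate 1, with a log2 fold change of −2.53 over all libraries and −1.66 without it.

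Of 16 genes of class I turnover and its inhibitors, 6 were lower and 4 higher, against 27.7% and 26.8% of all genes. Their median was −0.04. MARCHF4, a membrane ubiquitin ligase that can remove class I molecules from the cell surface, rose 2.80-fold (1.48 ± 0.069, SE; edgeR adjusted p = 1.64e-07), at 58.0, 60.2 and 60.5 CPM in miR372_3p libraries against 23.5, 21.2 and 19.2 CPM in Control libraries. WWP2 (−0.41 ± 0.055) and SUSD6 (−0.41 ± 0.119), which have been described as acting together with TMEM127 against class I at the surface, fell, although the call for SUSD6 was lost without miR372_3p replicate 2 (edgeR adjusted p = 0.0537). AP1M1, an adaptor of sorting vesicles, had −0.65 ± 0.056 by edgeR but did not pass with limma on FPKM (−0.19 with 0.1 added to FPKM, adjusted p = 0.834). Protein at the cell surface was not measured.

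Levels can be set between genes only per length. In deposited FPKM, B2M was the most abundant of the 9 genes, at 164 ± 15.3 FPKM in miR372_3p and 218 ± 34.4 FPKM in Control cells (SD, n = 3). In Control cells PSMB8 (41.4 ± 6.13), HLA-C (40.8 ± 1.81), PSMB9 (34.2 ± 8.03), HLA-B (33.8 ± 4.25), HLA-E (30.2 ± 0.135) and TAPBP (29.9 ± 2.27 FPKM) followed, and each of these overlapped its neighbour in the order except HLA-B, whose lowest library (30.9 FPKM) was just above the highest of HLA-E (30.3 FPKM). TAP2 (14.5 ± 0.654 FPKM) and TAP1 (9.54 ± 1.084 FPKM) were lowest and stood apart from the rest and from each other. In miR372_3p cells HLA-C (27.2 ± 0.952), HLA-E (22.6 ± 1.24), PSMB8 (22.1 ± 0.848), HLA-B (19.2 ± 0.819), PSMB9 (17.2 ± 0.469) and TAPBP (17.0 ± 0.982 FPKM) came after B2M. PSMB8 thus ranked 4 of 9 in miR372_3p and 2 of 9 in Control cells, and HLA-E ranked 3 in miR372_3p and 6 in Control cells, among values of which several overlap. TAP2 (10.6 ± 0.410 FPKM) and TAP1 (6.97 ± 0.538 FPKM) were again the lowest.

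The Control libraries differed among themselves more than the miR372_3p libraries did. Over the 9 genes the median coefficient of variation was 3.39% in miR372_3p and 8.99% in Control cells. Control replicate 3, which stood apart in the whole transcriptome, was the highest Control library for 6 of the 9 genes, HLA-B, B2M, TAP1, TAP2, PSMB8 and PSMB9, and its deviation from the group mean reached 0.347 on the log2 scale for PSMB9. TAPBP went the other way, with Control replicate 3 at −0.126 and Control replicate 2 at 0.133. HLA-E was also lowest in Control replicate 3, by a small deviation of −0.025. Without Control replicate 3 all 9 genes were still called lower, with log2 fold changes from −0.91 for TAPBP to −0.37 for TAP1. PSMB9 (−0.79), PSMB8 (−0.81) and HLA-B (−0.72) were then smaller in size than over all libraries, and TAPBP larger.

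**Figure D5:**
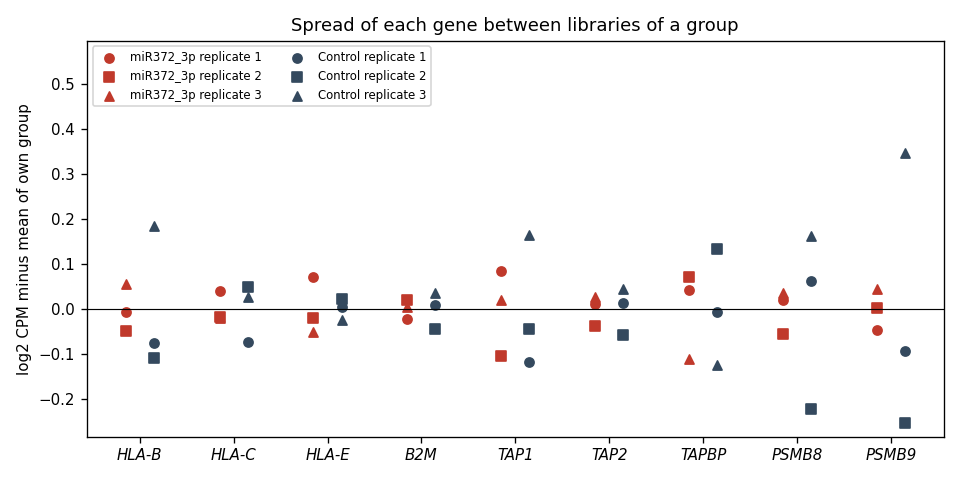
Log2 CPM of each library minus the mean of its own group, for the 9 genes. Circles, squares and triangles are replicates 1, 2 and 3, with miR372_3p in red left of Control in dark blue. Control replicate 3 lies highest for PSMB9, at 0.347, and for HLA-B and TAP1, and lowest among Control libraries for TAPBP and HLA-E.

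The genes whose pattern over the 6 libraries was most like that of 2 of the 9 were found by Pearson's r of log2 CPM among genes of at least 10 CPM, as a description, since r mostly reflects the difference between the groups. Nearest to B2M were ELOVL7, PRSS23 and TMEM37 (each 0.999), and nearest to TAP1 were DGAT1 (0.996), FBXW11 (0.996) and PPIF (0.994). ELOVL7, a fatty acid elongase, had a log2 fold change of −0.80 ± 0.058 (SE), and DGAT1, which makes triacylglycerol, of −0.28 ± 0.064. The authors' deposited table gives these 9 genes log2 fold changes from −0.99 (PSMB9) to −0.40 (B2M).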

How the data were processed

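RNA from 3 miR372_3p and 3 Control libraries was prepared with the NEBNext Ultra RNA kit, per the labels' protocols. The submitters' processing notes name GRCh38, HISAT2 2.0.4, StringTie 2.2.1 and DESeq2 1.38.3, with no role for each. Raw counts per gene and FPKM were deposited by the authors in 1 table, and the step that assigned reads to genes is not described. The authors' deposited table also holds 1 p-value and 1 log2 fold change per gene from their own comparison. Of 14006 rows, the 12396 with an Ensembl ID were tested. The 1610 rows without a gene name, which held 2.64% to 2.74% of counts in miR372_3p and 2.88% to 3.63% in Control libraries, stayed out of library sizes.

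Counts were fitted with edgeR 4.0.16 (R 4.3.3) by the quasi-likelihood F-test with TMM factors, group as the only term and Benjamini-Hochberg adjustment over all genes. The filterByExpr filter of edgeR was applied and all 12396 genes passed it, with 208 as the lowest row total. CPM used TMM-scaled library sizes. Ratios of FPKM within libraries were compared by an exact two-sided permutation test. The fit was tested on simulated counts. Same-numbered libraries did not deviate together (correlations −0.136, −0.0517 and 0.103), so numbers were not taken to pair them. No 2 libraries agreed within sampling noise (within groups, chi-square over its degrees of freedom was 6.86 to 38.6). The 9 genes and the lists were chosen with earlier results of these data known. The rule named the 9 genes, up to 6 genes per list with the largest change among those that passed, and the 3 genes most like TAP1 and B2M. Other genes were named after their values were seen. Alternatives were other scalings, DESeq2 1.42.0, limma 3.58.1 on log2 FPKM, filters, summed HLA rows, a replicate block and leaving out each library. Some genes and sites that enter the fit and the counts over lists are not reported here.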

Additional observations from a re-analysis of the deposited data

How the results depend on the processing

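All 9 genes stayed lower and past the threshold in each of the 16 alternatives in which they could be fitted (141 of 141 combinations of gene and alternative), with the highest adjusted p, 0.0277, for B2M with limma on FPKM. With a replicate block, 3428 genes were called lower and 3381 higher, and all 9 genes were still lower, PSMB9 at −0.97 and B2M at −0.40. Over all settings 2936 to 3683 genes were called lower and 2800 to 3726 higher. Without 1 library, PSMB5 ranged from −0.011 to 0.047 and PSMB6 from −0.11 to 0.054 on the log2 scale, and neither passed in the fit to all libraries; the cause was not tested. Summing the HLA rows leaves 7 of the 9 genes or rows to count, since 3 of them become 1 row. With 3 libraries a group, ratios cannot reach an exact p under 0.1, and genes at a few CPM, such as IRF9 and TNXB, have wide errors.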
